A study of Mus musculus with 9 samples.

Results

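The presynaptic release and transmitter transporter genes are the families that make, load and empty synaptic vesicles and that clear transmitter afterwards. Members were the protein-coding genes of GENCODE vM21 on the mouse build GRCm38 (mm10) whose symbols begin with Syt, Stx, Vamp, Rims, Cplx, Slc6a, Slc17a or Slc18a followed by a number, together with Unc13a, Unc13b, Unc13c, Sv2a, Sv2b, Sv2c, Snap25 and Slc32a1. This gave 88 of 21938 protein-coding genes. The differentially methylated regions (DMRs) of a member were those overlapping its gene body or the 1000 bp upstream of it, and 43 of the 12949 listed DMRs did so. The rule uses symbols and no measured value, though it was set with earlier results of these data known. Family names do not make a gene presynaptic, and several members act in Golgi, endosome, kidney or gut.

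Methylated DNA immunoprecipitation sequencing (meDIP) was performed on hypothalamus of male C57/Bl6 pups in the first week after birth. There were 3 control libraries and 3 libraries from pups exposed to modified maternal separation (MMS), a neonatal stress in which pups were taken from the dam and handled each day, while control pups came from the same litters. Each library was a pool of animals. A control input, an MMS input and 1 IgG library entered the authors' processing only, and their labels name the same methylcytosine antibody (BI-MECY) as the meDIP libraries. The values are the authors' log2 group means of normalised reads, so no spread between pools and no depth behind a value is known, and no difference was tested here. The table's headings call the groups untreated and treated, which were taken to mean control and MMS. A DMR was listed by the authors because it passed their own threshold between the groups, so a difference at every DMR was given by the listing and is described here without a test. The hypothalamus was measured as bulk tissue, in which a change in the mixture of cells and a change of methylation within a cell cannot be told apart. Differences are written as MMS minus control on the log2 scale throughout.

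Release of transmitter begins when vesicle SNAREs (the VAMPs) zip together with target SNAREs (syntaxins and SNAP25) and pull the vesicle onto the plasma membrane. RIM and Munc13 proteins (genes Rims and Unc13) dock and prime the vesicle at the active zone, complexins clamp the assembled SNAREs, and synaptotagmins couple fusion to calcium. SV2 proteins are glycoproteins of the vesicle membrane. Vesicles are loaded by some SLC17 carriers and by SLC18 and SLC32 carriers, which draw on the electrochemical proton gradient of the vesicle. Transmitter is taken back across the plasma membrane by SLC6 carriers, which run on sodium and chloride. In meDIP, reads over a region rise both with the methylation of its cytosines and with its number of CpG sites.

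The sequences below show the range of DNA under the member DMRs. Each is a stretch of at most 200 bases of the plus strand of GRCm38 taken inside the DMR, in lower case, with CpG sites in capitals. The first pair are from the member DMRs with the most CpG per 100 bp in each direction, Stx6 (chr1:155197630-155197829, higher in MMS) and Slc6a6 (chr6:91693626-91693807, higher in control).
Stx6: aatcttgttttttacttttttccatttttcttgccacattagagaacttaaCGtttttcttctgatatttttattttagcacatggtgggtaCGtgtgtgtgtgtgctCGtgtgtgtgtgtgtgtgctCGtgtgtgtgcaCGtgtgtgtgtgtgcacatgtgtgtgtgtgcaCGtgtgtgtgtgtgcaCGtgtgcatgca
Slc6a6: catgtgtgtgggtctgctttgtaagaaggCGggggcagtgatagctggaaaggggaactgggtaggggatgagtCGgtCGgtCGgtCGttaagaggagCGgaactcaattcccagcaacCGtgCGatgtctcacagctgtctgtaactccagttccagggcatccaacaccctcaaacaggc
The next pair are from the DMRs with the largest difference in each direction, Slc6a17 (chr3:107479675-107479874, higher in MMS), a tandem repeat whose printed stretch holds 0 CpG, and Rims3 (chr4:120871849-120872048, higher in control), whose stretch holds 5.
Slc6a17: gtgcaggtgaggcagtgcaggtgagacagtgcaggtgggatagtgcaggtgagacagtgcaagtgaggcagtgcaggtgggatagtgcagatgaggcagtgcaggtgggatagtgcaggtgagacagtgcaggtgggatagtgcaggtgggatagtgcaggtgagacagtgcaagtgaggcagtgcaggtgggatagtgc
Rims3: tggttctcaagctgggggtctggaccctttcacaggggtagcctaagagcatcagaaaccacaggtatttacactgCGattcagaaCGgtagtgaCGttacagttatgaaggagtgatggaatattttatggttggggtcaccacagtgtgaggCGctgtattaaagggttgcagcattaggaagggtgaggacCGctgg
Syt8 (chr7:142439522-142439659) and Sv2c (chr13:96088901-96089100) are shown because their DMRs were centred in the promoter of a transcript. Both were higher in control.
Syt8: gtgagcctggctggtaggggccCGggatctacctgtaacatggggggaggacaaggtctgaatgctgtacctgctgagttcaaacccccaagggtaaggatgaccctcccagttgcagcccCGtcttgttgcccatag
Sv2c: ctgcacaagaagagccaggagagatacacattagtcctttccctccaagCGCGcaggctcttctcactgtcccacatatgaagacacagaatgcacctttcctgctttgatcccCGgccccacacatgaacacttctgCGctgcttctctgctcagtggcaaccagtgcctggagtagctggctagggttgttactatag
The DMRs of the vesicular glutamate transporter Slc17a7 (chr7:45164423-45164606), the serotonin transporter Slc6a4 (chr11:76999254-76999453) and the SNARE gene Snap25 (chr2:136749526-136749725) are shown for their place in the release machinery and were picked after their values had been seen. All of them were higher in MMS, and their printed stretches hold 2, 1 and 0 CpG.
Slc17a7: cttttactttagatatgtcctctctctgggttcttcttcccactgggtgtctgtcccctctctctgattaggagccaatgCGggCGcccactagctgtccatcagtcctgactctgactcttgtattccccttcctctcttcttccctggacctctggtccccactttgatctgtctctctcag
Slc6a4: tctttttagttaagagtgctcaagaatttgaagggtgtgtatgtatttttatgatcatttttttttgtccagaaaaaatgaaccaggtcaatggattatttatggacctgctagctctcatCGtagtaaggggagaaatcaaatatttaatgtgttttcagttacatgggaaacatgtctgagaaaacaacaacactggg
Snap25: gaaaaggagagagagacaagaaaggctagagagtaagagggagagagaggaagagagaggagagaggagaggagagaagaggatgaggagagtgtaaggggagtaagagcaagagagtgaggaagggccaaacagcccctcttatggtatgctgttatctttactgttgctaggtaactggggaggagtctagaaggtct

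Of the 88 members, 29 (33.0%) had at least 1 DMR, beside 19.3% of all protein-coding genes. A DMR higher in MMS was found in 18 members (20.5%), beside 13.6% of all genes, and a DMR higher in control in 17 members (19.3%), beside 9.13%. The share of genes with a DMR rose with gene length, among the members and among all genes. The median length was 34.3 kb over the members and 17.4 kb over all protein-coding genes. It was 50.5 kb in members with a DMR and 28.6 kb in those without. Under 10 kb, 1 of 10 members had a DMR (10%, all genes 3.58%). From 10 to 30 kb, 6 of 27 did (22.2%, all genes 13.2%), and from 30 to 100 kb, 14 of 38 (36.8%, all genes 29.8%). The longest classes lay slightly below the background, with 5 of 9 members from 100 to 300 kb (55.6%, all genes 57.4%) and 3 of 4 over 300 kb (75.0%, all genes 79.9%). Per Mb of gene window the members had 6.98 DMRs, and all protein-coding genes had 6.14.

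**Figure D1:**
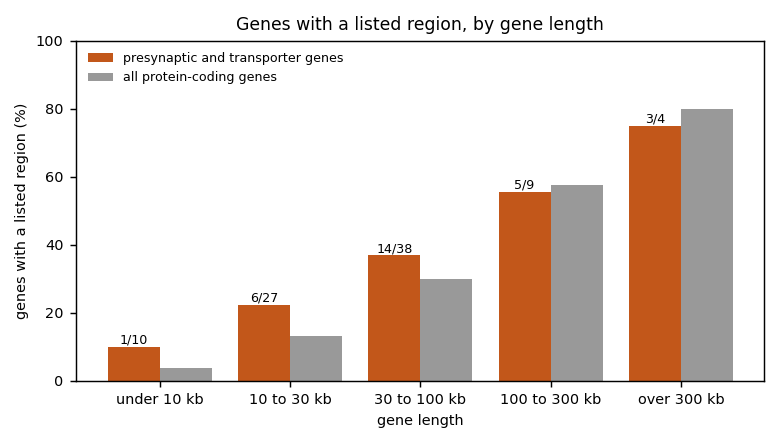
Percent of genes with at least 1 listed DMR (y axis) by gene length (x axis), for the 88 members and for all 21938 protein-coding genes; the fractions above the bars are members with a DMR over members in the class. Both sets of bars rise from the shortest class (10% of members, 3.58% of all genes) to the longest (75.0% and 79.9%).

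Member DMRs were found in both directions. Of 43, 23 (53.5%) were higher in MMS and 20 were higher in control. Of the 6498 DMRs in protein-coding genes, 62.1% were higher in MMS. The 95% Wilson interval of the member share, 38.9 to 67.5%, covers counting error only. It takes DMRs as independent, although several share a gene and all come from the same pools. The interval is therefore too narrow and is not used to compare the shares. With a minimum log2 difference of 2, 80.8% of the member DMRs left were higher in MMS (all genic DMRs 81.1%). With DMRs whose lower group stood at its lowest value left out, 42.9% were (all genic DMRs 45.9%). In the DMRs higher in MMS the difference ran from 1.52 to 4.91 with a median of 3.50 (3.41 over all genic DMRs of that direction). In those higher in control it ran from -3.53 to -0.97 with a median of -1.59 (all genic DMRs -1.69).

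The directions differed in where the lower group stood, among the members and among all genic DMRs. In DMRs higher in MMS the median group mean was 4.26 in MMS and 0.75 in control (all genic DMRs 4.13 and 0.29). In DMRs higher in control it was 5.2 in control and 3.61 in MMS (all genic DMRs 5.16 and 3.4), so that the lower group still held reads. Control stood within 0.5 of the lowest value of its column (-0.17, or 0.889 normalised reads) in 8 of the 23 DMRs higher in MMS (34.8%, all genic DMRs 50.3%). MMS stood within 0.5 of its lowest value (-0.24) in 0 of the 20 higher in control (all genic DMRs 3.9%). A difference measured from the lowest value depends on where that value was set.

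**Figure D2:**
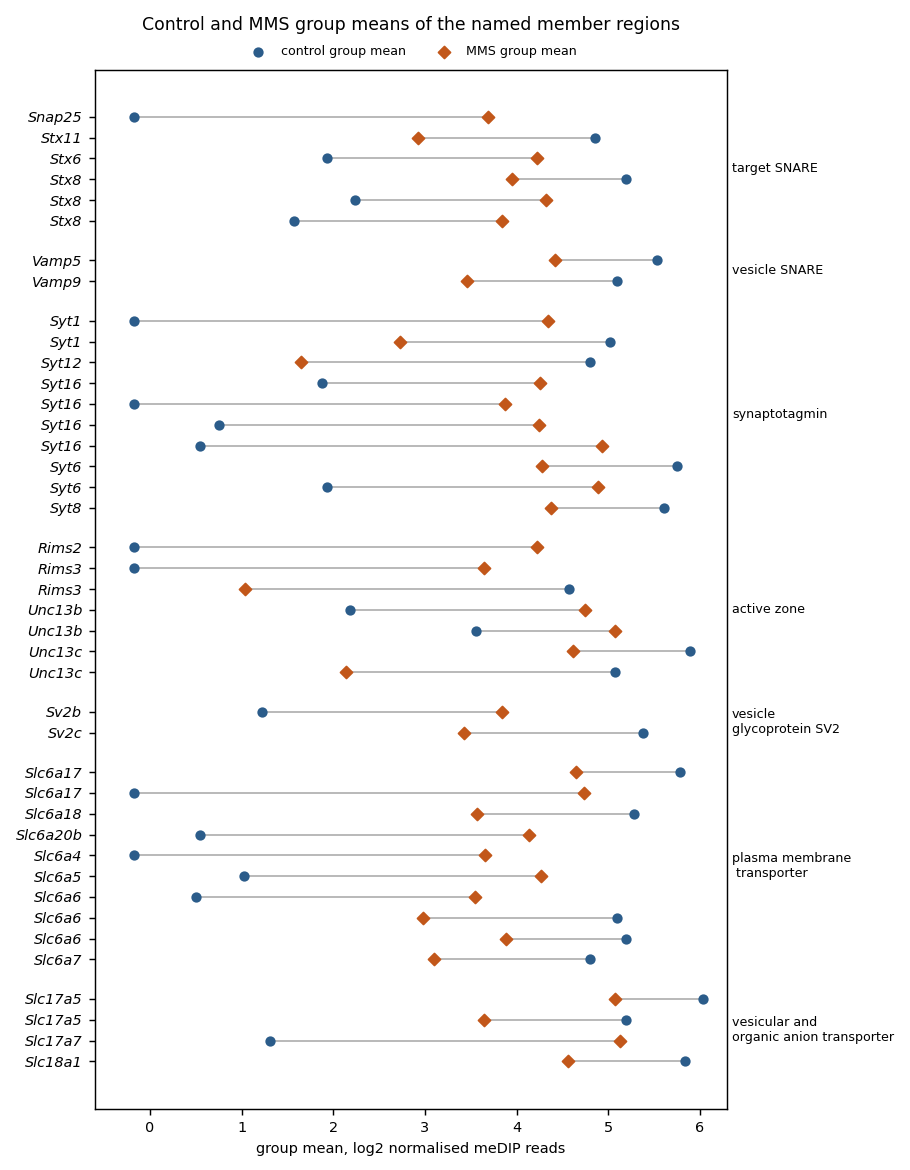
Control (circles) and MMS (diamonds) group means of the member DMRs named in the text, in log2 normalised meDIP reads (x axis), 1 line per DMR, ordered by the role of the gene (right). In DMRs higher in MMS the MMS means sit between 3.55 and 5.13 and the control means spread from -0.17 to 3.56, while in DMRs higher in control the control means sit between 4.57 and 6.04.

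Among the target SNAREs, 5 of 16 genes had a DMR (31.2%, all protein-coding genes 19.3%). Of their DMRs, 5 were higher in MMS and 2 higher in control. Snap25, a core subunit of the neuronal SNARE complex, had 1 DMR in its first intron, 36.2 kb from the gene start (chr2:136749369-136749883). Its group mean was -0.17 in control and 3.69 in MMS, a difference of 3.86. The region holds 2 CpG in 515 bp and is repeat sequence over 89.9% of its length, the highest repeat share of any member DMR. Stx1a, a syntaxin of the neuronal plasma membrane, had no DMR, and the nearest lay 68.9 kb from its window.

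Other target SNAREs with a DMR serve other membranes. Stx6, a syntaxin of endosomes and the trans-Golgi network, had the most CpG-dense DMR of those higher in MMS (chr1:155197571-155197889), with 12 CpG, or 3.76 per 100 bp. Its mean was 1.93 in control and 4.22 in MMS. It is repeat sequence over 58.0% of its length, as the CpG-bearing runs of alternating bases in the printed stretch show. Stx8, a syntaxin of late endosomes, had 3 DMRs spread over 115 kb of its introns. The first from the gene start was higher in control (5.2 against 3.95 in MMS), and the other two were higher in MMS (2.24 in control against 4.32, and 1.57 against 3.84). Stx11, which is known for secretion by immune cells, had 1 DMR in its first intron with 4.86 in control and 2.93 in MMS (difference -1.93).

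Both DMRs of the vesicle SNAREs lay in genes other than the main neuronal VAMPs. Of 7 genes, 2 had a DMR (28.6%, all protein-coding genes 19.3%), each higher in control. So few DMRs give no direction for the family. Vamp5, best known from muscle, had means of 5.53 in control and 4.42 in MMS at chr6:72374331-72375239. Vamp9 had means of 5.10 and 3.46 at chr5:99945486-99945769. Vamp1 and Vamp2, the synaptobrevins of synaptic vesicles, had no DMR within 80.8 and 40.9 kb of their windows. Vamp2 spans only 3.90 kb, in the length class where DMRs were rarest.

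Synaptotagmins had 10 DMRs in 5 of 17 genes (29.4%, all protein-coding genes 19.3%). Of these DMRs, 6 were higher in MMS. Syt1, the calcium sensor for fast synchronous release, is 513 kb long and had 2 DMRs of opposite direction near its far end. The one at chr10:108597311-108599610 is 2300 bp wide and holds 33 CpG, the most of any member DMR. Its mean was -0.17 in control and 4.34 in MMS, a difference of 4.51 that 8.54% of genic DMRs of the same direction exceeded. Another at chr10:108527595-108527767, 69.5 kb further along the gene, had 5.02 in control and 2.73 in MMS (difference -2.29). Syt2, the fast sensor of many hindbrain and spinal synapses, had no DMR in its window, but one lay 1.34 kb beyond its upstream edge with 5.12 in control and 1.83 in MMS.

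Syt16 had the most DMRs of any member. It is an atypical synaptotagmin thought not to bind calcium. All 4 of its DMRs were higher in MMS and all lay in its first intron, over 102 kb. Control and MMS means were 1.88 and 4.26 at chr12:74002440-74002668, and -0.17 and 3.87 at chr12:74039124-74039368. They were 0.75 and 4.25 at chr12:74053639-74054422, and 0.55 and 4.93 at chr12:74103476-74104708. The MMS means lay between 3.87 and 4.93, while control was at most 0.75 at all but the first. CpG density lay between 0.406 and 1.75 per 100 bp across them. At 276 kb, Syt16 had 1.45 DMRs per 100 kb.

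Syt6, a synaptotagmin also known from the sperm acrosome, had 2 DMRs 13.1 kb apart that moved in opposite directions. The one in the first intron had 5.75 in control and 4.28 in MMS, and the one in the third intron had 1.93 and 4.89. Syt12, which lacks the calcium-binding residues of the family, had 1 DMR (chr19:4451663-4451848) with 4.8 in control and 1.65 in MMS, the largest difference in that direction after a Rims3 DMR at -3.15. It holds 1 CpG and is repeat sequence over 61.3%. Syt8 is only 5.55 kb long and its DMR (chr7:142438689-142439914) covers 596 bp of coding sequence across exons 4 to 8 of 9, more than any other member DMR. Its mean was 5.61 in control and 4.38 in MMS (difference -1.23). The promoter in which it is centred belongs to a transcript annotated for nonsense-mediated decay, not to the main start of the gene.

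The active zone genes were DMR-bearing in 4 of 7 cases (57.1%, all protein-coding genes 19.3%). They had 4 DMRs higher in MMS and 3 in control. This group is the longest, with a median gene length of 206 kb, and had 3.79 DMRs per Mb of gene length. All genes had 6.14 per Mb of gene window, with overlapping windows counted once. Rims2, an active zone scaffold that tethers calcium channels and primes vesicles, had 1 DMR 135 kb into the gene (chr15:39332508-39333719) with -0.17 in control and 4.22 in MMS. It carries 20 CpG. Its close relative Rims1 is the longest of all members at 520 kb and had no DMR. The nearest lay 117 kb upstream of its window.

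Rims3, a short RIM that keeps only the C-terminal part of the family's proteins, had a pair of DMRs 6.72 kb apart in its first intron. The upstream one (chr4:120863890-120865016) had -0.17 in control and 3.65 in MMS, and 56.7% of its 20-base words occur more than once within it. The downstream one (chr4:120871738-120872160) had 4.57 in control and 1.04 in MMS, the largest difference of any member DMR higher in control at -3.53. In linear terms that is 23.8 against 2.06 normalised reads. The downstream sequence holds 9 CpG and 0 repeated 20-base words. Annotated repeats run the other way, covering 34.3% of the downstream DMR and 4.35% of the upstream one.

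The Munc13 genes, whose proteins open syntaxin so that SNAREs can assemble, split by gene. Unc13b had 2 DMRs 2.53 kb apart near its end, both higher in MMS. Means were 2.18 in control and 4.75 in MMS at chr4:43257606-43257841. At chr4:43260374-43261766, which covers 85 bp of coding sequence in exon 37 of 39, they were 3.56 and 5.08 (difference 1.52, the smallest of the DMRs higher in MMS). Unc13c, the form best known from cerebellum, had 2 DMRs 133 kb apart, both higher in control. Its means were 5.89 and 4.62 in the eighth intron (chr9:73741431-73741637) and 5.08 and 2.14 in the nineteenth (chr9:73608128-73608287). Unc13a, the main form of forebrain excitatory synapses, had no DMR in its window. One lay 0.909 kb past its downstream end with 5.01 in control and 3.60 in MMS.

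The SV2 genes had 2 DMRs of opposite direction. Sv2b had 1 in its first intron (chr7:75217771-75218372) with 1.22 in control and 3.84 in MMS. Sv2c had 1 at chr13:96088381-96089414 with 5.38 in control and 3.43 in MMS. It carries 23 CpG, covers 419 bp of coding sequence in exon 2 of 13 and is centred in the promoter of an alternative protein-coding transcript. Sv2a, the most widely expressed of the family, had no DMR within 102 kb. None of the 4 complexin genes had a DMR in its window, where 19.3% of all protein-coding genes had one. The nearest lay 36.0 kb from Cplx1, 17.8 kb from Cplx2, 19.4 kb from Cplx3 and 5.14 kb from Cplx4. All of the complexin genes are at most 31.5 kb long.

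The plasma membrane transporters had 11 DMRs in 8 of 21 genes (38.1%, all protein-coding genes 19.3%). Of these DMRs, 6 were higher in MMS and 5 higher in control. Slc6a4 takes serotonin back into raphe neurons and their terminals, which reach the hypothalamus. Its DMR was centred in the first intron 750 bp from the gene start, outside the promoter window, which ended 100 bp downstream of a start. Its mean was -0.17 in control and 3.66 in MMS. The region is 200 bp wide and has 1 CpG, visible in the printed sequence. Slc6a5, the neuronal glycine carrier, had 1.03 in control and 4.27 in MMS in intron 5 (chr7:49919519-49919917). Slc6a11, the glial GABA carrier, had no DMR. The carriers for noradrenaline (Slc6a2), dopamine (Slc6a3) and glial glycine (Slc6a9) had no DMR. The windows of these last genes lay 27.9, 95.4 and 114 kb from the nearest one.

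Slc6a17 loads neutral amino acids into synaptic vesicles and is an exception to the uptake role of its family. It had 2 DMRs 4.39 kb apart in its sixth intron, again of opposite direction. At chr3:107478035-107481516 the mean was -0.17 in control and 4.74 in MMS. The difference of 4.91 was the largest of any member DMR, and 2.85% of genic DMRs of that direction exceeded it. This DMR is also the widest (3482 bp) and the poorest in CpG (11, or 0.316 per 100 bp). Repeat annotation masks only 2.47% of it, yet 56.7% of its 20-base words recur within it, as the printed tandem repeat shows. The neighbouring DMR at chr3:107485903-107486770 had 5.78 in control and 4.65 in MMS and 0 repeated 20-base words. How reads were assigned within such repeats was not tested.

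Slc6a6, the taurine carrier, had 3 DMRs. The first in the gene (chr6:91690321-91690543) had 0.50 in control and 3.55 in MMS. Only 3.08 kb further on, the densest in CpG of all member DMRs (chr6:91693626-91693807, 8 CpG or 4.40 per 100 bp) had 5.10 in control and 2.98 in MMS. The last, at chr6:91752100-91752913, had 5.2 and 3.88, carries 21 CpG and covers 171 bp of coding sequence in exon 14 of 15. Slc6a7, the brain proline carrier, had 4.8 in control and 3.10 in MMS in intron 13 (chr18:60997906-60998317).

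Transporters of the SLC6 family that are best known from kidney and gut also had DMRs. Slc6a18 had 5.28 in control and 3.57 in MMS at chr13:73674031-73674352. The same DMR was the nearest to its neighbours Slc6a19, at 5.39 kb, and Slc6a3. Slc6a20b had 0.55 in control and 4.14 in MMS at chr9:123607221-123607420. Its paralogue Slc6a20a lies beside it and had no DMR of its own. Reads of near-identical stretches in such a pair can be shared between the copies, which was not tested here.

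Vesicular and organic anion transporters had 4 DMRs in 3 of 13 genes (23.1%, all protein-coding genes 19.3%). Of these DMRs, 1 was higher in MMS and 3 higher in control. Slc17a7 (Vglut1), which loads glutamate in cortical and many other excitatory neurons, had the DMR higher in MMS. It lay in the first intron 565 bp from the gene start, with 1.31 in control and 5.13 in MMS, or 2.48 against 35.0 normalised reads. It spans 184 bp and has 2 CpG. Slc17a6 (Vglut2), the main glutamate loader of hypothalamic neurons, had no DMR within 406 kb, and Slc17a8 (Vglut3) had none within 92.1 kb. Slc17a5 (sialin), a lysosomal sialic acid exporter, had 2 DMRs, both higher in control. Its first intron held the member DMR with the highest control mean and the smallest difference, 6.04 in control and 5.07 in MMS (chr9:78585863-78586575, 21 CpG). The other, 40.0 kb away, had 5.2 and 3.65.

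Monoamine and acetylcholine loaders were represented by Slc18a1 (Vmat1), found mostly in endocrine cells, with 5.84 in control and 4.56 in MMS at chr8:69063825-69064923. Slc18a2 (Vmat2), the monoamine loader of neurons, had none within 13.9 kb. Slc18a3, the acetylcholine loader, is 2.41 kb long and had none within 35.8 kb. Slc32a1, which loads GABA and glycine and defines most inhibitory hypothalamic neurons, is 4.98 kb long and had none within 103 kb.

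In 10 members there were 2 or more DMRs. Of these, 6 held DMRs of both directions (Syt6, Slc6a17, Rims3, Slc6a6, Syt1 and Stx8), beside 762 of 1330 protein-coding genes with 2 or more DMRs (57.3%). Unc13b and Syt16 held only DMRs higher in MMS, and Unc13c and Slc17a5 only DMRs higher in control. Opposite neighbours were as close as 3.08 kb in Slc6a6, 4.39 kb in Slc6a17 and 6.72 kb in Rims3. A single direction for a whole gene therefore cannot be given for these 6 members.

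**Figure D3:**
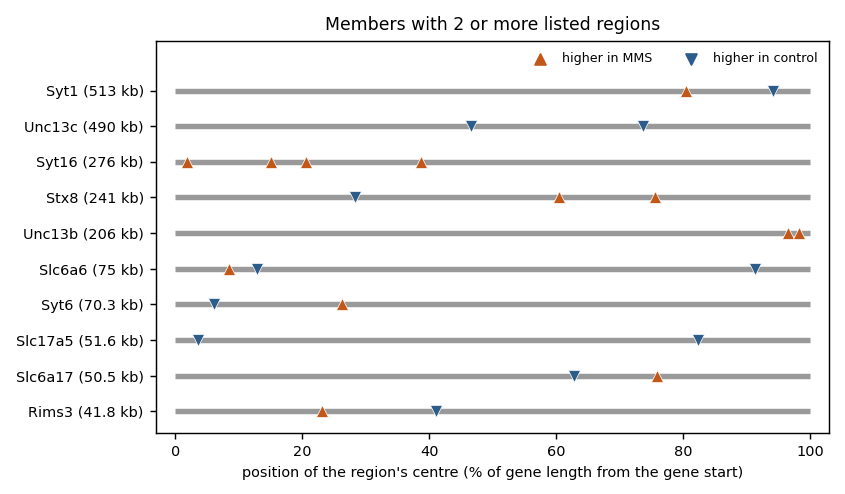
Position of each DMR centre (x axis, percent of gene length from the gene start) in the 10 members with 2 or more DMRs, with gene lengths in kb. Upward triangles mark a higher MMS mean and downward triangles a higher control mean; 6 of the 10 genes carry both, and all 4 DMRs of Syt16 point up within the first 38.6% of the gene.

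By the centre of the region, 40 of 43 member DMRs lay in introns (93.0%, beside 85.1% of DMR and gene pairs over all protein-coding genes). Promoters held 2 (4.65%, all pairs 5.10%), a non-coding exon held 1, in Slc6a6 (2.33%, all pairs 4.37%), and coding exons 0 (all pairs 4.34%). The first intron alone held 17 (39.5%, all pairs 24.2%), of which 4 lay in Syt16. The length of first introns was not compared. With each gene cut into 3 equal lengths, the first from the start held 16 DMRs, the middle 13 and the last 14. These are 37.2, 30.2 and 32.6%, where all pairs had 34.8, 31.7 and 33.5%. Coding sequence was touched by 6 member DMRs, among them those of Unc13b, Slc6a6, Syt8 and Sv2c. No member DMR overlapped the window of another protein-coding gene.

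The median CpG density of the member DMRs was 1.25 per 100 bp (all genic DMRs 1.43, all listed DMRs 1.32), with 1.09 in DMRs higher in MMS and 1.47 in those higher in control. Over all genic DMRs these medians were 1.38 and 1.52. Counts ran from 1 CpG in Slc6a4, Syt12 and Stx8 to 33 in Syt1, and no member DMR lacked a CpG. Median width was 515 bp (all genic DMRs 562) and median GC content 48.8% (48.2%). Repeat sequence covered a median of 15.1% (16.4%) and exceeded 50% of the length in 3 member DMRs, those of Snap25, Syt12 and Stx6 (6.98%, all genic DMRs 11.1%). More than 10% of 20-base words recurred within 3 member DMRs, those of Rims3, Slc6a17 and Stx6 (6.98%, all listed DMRs 4.07%).

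Motifs that contain CpG or are known from neuronal genes were searched on both strands in the central 300 bp window of each DMR. The E-box CACGTG, bound by basic helix-loop-helix factors, was found in 2 of 43 member DMRs (4.65%), in Stx6 and Slc17a5, and in 5.58% of all listed DMRs. The cAMP response element TGACGTCA was found in 0 member DMRs and in 0.286% of all. TCAGCACC, a core of the element bound by the neuronal repressor REST, was found in 0 and in 1.78% of all. These are matches of letters in the reference and not measured binding.

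**Figure D4:**
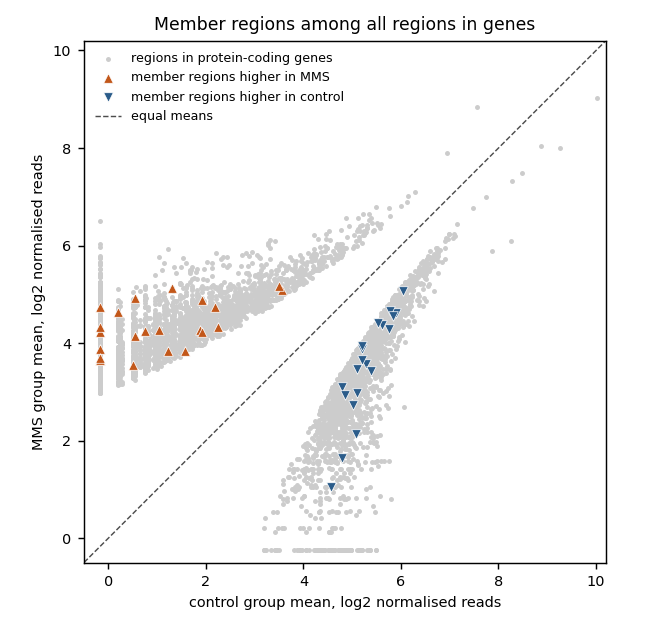
Control (x axis) against MMS (y axis) group means in log2 normalised reads for the 6498 DMRs in protein-coding genes (grey) with member DMRs on top (upward triangles for a higher MMS mean, downward triangles for a higher control mean); the dashed line marks equal means. Member DMRs lie within both grey clouds, which leave the band around equal means empty; only DMRs past the authors' threshold were listed.

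The 59 members without a DMR included the remaining syntaxins (Stx2, Stx3, Stx4a, Stx5a, Stx7, Stx12, Stx16, Stx17, Stx18 and Stx19), VAMPs (Vamp3, Vamp4 and Vamp8) and synaptotagmins (Syt3, Syt4, Syt5, Syt7, Syt9, Syt10, Syt11, Syt13, Syt14, Syt15 and Syt17). They also included Rims4, the SLC6 genes Slc6a8, Slc6a12, Slc6a13, Slc6a14, Slc6a15, Slc6a16 and Slc6a21, and the SLC17 genes Slc17a1, Slc17a2, Slc17a3, Slc17a4 and Slc17a9. The median distance from a member window to the nearest DMR was 75.6 kb. It was under 10 kb for 10 members and over 100 kb for 20. Several long genes were among those without a DMR, such as Syt9 (178 kb), Syt14 (145 kb) and Syt2 (116 kb). Absence from the list does not mean that methylation was equal.

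A list of 83 further genes of the release cycle was set beside the members. It holds active zone scaffolds, synapsins, SNARE regulators, endocytic proteins and other transmitter carriers. In it, 37 genes (44.6%) had a DMR, 27 with one higher in MMS and 17 with one higher in control, beside the 19.3%, 13.6% and 9.13% of all protein-coding genes. Of their 64 DMRs, 38 were higher in MMS (median difference 3.57) and 26 higher in control (median -1.79), where 62.1% of all genic DMRs were higher in MMS and the genic medians were 3.41 and -1.69. Syn3, a synapsin that tethers vesicles, had the most with 7, of which 5 were higher in MMS. Rph3al, a Rab effector of secretory granules, had 6, of which 4 were higher in control. Erc2, an active zone scaffold that binds RIM, is 856 kb long and had 4, all higher in control. In contrast, Sh3gl2 (endophilin A1), which acts in vesicle endocytosis, had 3, all higher in MMS. Slc1a2, the main glial glutamate carrier, had 1 with 1.93 and 5.05. The large active zone scaffolds Bsn and Pclo had none, although Pclo is 349 kb long. This list was not matched to the members or to all genes in length.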

How the data were processed

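meDIP libraries of hypothalamus from 3 control and 3 MMS pools were compared, with 1 control input, 1 MMS input and 1 IgG library whose own values were not used here. Torrent Suite was used by the authors for alignment to mm10, and MACS2 for broad peaks relative to inputs, with its genome size set to human. The authors compared the groups with DiffBind, by both DESeq2 and edgeR. The deposited table is named for DESeq2, but its number of regions equals the total that the study gives for edgeR, so which of these made the list is not settled, and regions past the authors' threshold by the other method may be missing from it. The submitters' processing notes name MACS2 2.1, DiffBind and HOMER 4.8. The deposited log2 values used are the authors' means of normalised reads in control and in MMS. Depth per value is not given. A mean over all libraries and the authors' own fold change, p-value and FDR were also deposited and were not used.

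Regions were joined to GENCODE vM21 genes with an overlap of at least 1 bp, and direction was taken from the group means. Places used the centre of the region and all transcripts of the gene (promoter 1000 bp upstream to 100 bp downstream, then coding exon, other exon, intron). Distance, CpG, GC, soft-masked repeat and recurring 20-base words came from GRCm38, whose chromosome sequences are from RefSeq. RefSeq gene models on that assembly held all 88 symbols. Background shares for place count a region once for each gene it overlaps. No test, SD or p was computed, since there is 1 mean per group. The overlap routine was tested on simulated regions.

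Every member with a DMR was named, except that a few results are not reported here. Members with 2 or more DMRs, those with the largest difference, and genes of a core release and a transmitter transporter set were described in full. Members and lists were chosen with earlier results of these data known. Alternatives changed the gene window, overlap rule, gene models, chromosomes, region width, minimum difference and treatment of the lowest value. Python 3.11.15, numpy 2.4.6, pandas 2.3.3, pysam 0.24.0, scipy 1.17.1 and matplotlib 3.10.9 were used.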

Additional observations from a re-analysis of the deposited data

How the results depend on the processing

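No paired analysis was possible because the values are 1 mean per group, and for the same reason no pool could be left out. A minimum log2 difference of 2 left 19 member genes with a DMR in place of 29, and 80.8% of their DMRs were higher in MMS in place of 53.5%. This setting removes small differences, and those higher in control were the smaller ones. Elsewhere the count of genes ran from 23 (DMRs of at least 300 bp) to 33 (5000 bp upstream), and was 29 with the gene body alone, with the centre of the region inside the window, with RefSeq gene models and on autosomes alone. The share higher in MMS ran from 42.9% (lower group above its lowest value) to 53.5%. Without DMRs whose lower group stood at its lowest value, the median difference of DMRs higher in MMS was 2.62 in place of 3.50. Among DMRs of at least 300 bp the median in the other direction was -1.40 in place of -1.59. Control stood at its lowest value in 7 to 12 of the DMRs higher in MMS. Introns held 42 DMRs by the longest transcript alone.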

Other observations

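Widening the upstream window to 5000 bp added 4 members, each with a DMR just beyond the promoter side of the gene. Syt2 had 5.12 in control and 1.83 in MMS, and Rims4, a short RIM, had 5.87 and 4.66. Slc6a8, the creatine carrier on chromosome X, had 4.41 and 2.59. Stx5a, a Golgi syntaxin, had 0.96 and 3.62, the only one of them higher in MMS.

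Some member families lie in clusters, so that the DMR of one gene was the nearest to another. The Vamp5 DMR lay 9.98 kb from the window of Vamp8. The Slc6a20b DMR lay 27.4 kb from the window of Slc6a20a.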
